A study of Mus musculus with 2 samples.

Results

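The adhesion molecules that let leukocytes leave the blood were followed across the cell types of the neonatal mouse lung, together with Glycam1, a mucin-like protein that carries sugars for L-selectin. The set held 9 genes of the 27998 in the count matrices: Glycam1, Madcam1, Sele, Selp, Selplg, Icam1, Icam2, Vcam1 and Cd34. The genes were listed by name, and Glycam1 was selected on its UMI counts in endothelial cells (ECs), 0 in one library and many in the other, so that its level is a description here. A UMI (unique molecular identifier) stands for 1 captured mRNA molecule. Detected in at least 1 cell were 8 of the 9 in room air and 9 of the 9 in hyperoxia, against 19660 and 20448 of all genes.

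The single-cell RNA sequencing consisted of 2 libraries of dissociated whole lung from C57BL/6 mice at 2 weeks of age. One pool of 8 mice had been kept in room air (21% oxygen), and one pool of 8 mice had been kept in hyperoxia (80% oxygen) from day 0 to day 14 after birth, an exposure used to model the arrested lung growth of preterm infants. Neither group carried an engineered allele according to the labels. With 1 library per group there was no replicate, and no test between the groups was possible. Every interval below is a 95% interval of counting error alone, which leaves out the variation between mice and between dissociations. The intervals of CPM and of ratios treat each UMI as independent, so they leave out the variation between cells too.

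A leukocyte in the bloodstream is first slowed by selectins, which bind fucosylated and sulphated sugars on mucin-like scaffolds, then held firmly by immunoglobulin-like molecules that bind its integrins, and then passes between the ECs. Sele and Selp are the selectins of activated endothelium, Selplg is the ligand that leukocytes present to them, Icam1, Icam2 and Vcam1 bind leukocyte integrins, and Glycam1, Madcam1 and Cd34 are scaffolds for L-selectin ligands. Glycam1 and Madcam1 are best known from high endothelial venules, the vessels through which lymphocytes enter lymph nodes and mucosal lymphoid tissue, where the enzymes Fut7, Gcnt1, Chst2 and Chst4 finish the sugars. In this lung vasculature the capillary ECs divide into general capillary cells (gCap) and aerocytes (aCap), beside arterial, venous and lymphatic ECs.

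On the mouse build GRCm38 (GENCODE M21) Glycam1 (ENSMUSG00000022491) lies on the minus strand at chr15:103562759-103565081, Madcam1 (ENSMUSG00000020310) on the plus strand at chr10:79664559-79668537 and Icam1 (ENSMUSG00000037405) on the plus strand at chr9:21015985-21028817. The selectin genes Sele (ENSMUSG00000026582, chr1:164048234-164057677) and Selp (ENSMUSG00000026580, chr1:164115264-164150026) are on the plus strand and 57.6 kb apart. Vcam1 (ENSMUSG00000027962) lies at chr3:116109949-116129688, Icam2 (ENSMUSG00000001029) at chr11:106377656-106388075, Selplg (ENSMUSG00000048163) at chr5:113818536-113832644 and Cd34 (ENSMUSG00000016494) at chr1:194938819-194961279. RefSeq promoter windows (GRCm38.p6) were matched for 6 of the 9 members. The 250 bases before the start of Glycam1 and Madcam1, whose UMIs were found together in the same cells, and of Sele and Icam1, 2 adhesion genes that were higher in the ECs of hyperoxia, read 5′ to 3′ on the strand of each gene as follows, with capitals for the letters GGANNTTCC or their reverse complement GGAANNTCC (a form of the NF-kB site) and for TATAAA. The Glycam1 window is chr15:103565082-103565331, the Madcam1 window chr10:79664309-79664558, the Sele window chr1:164047984-164048233 and the Icam1 window chr9:21015690-21015939. The Icam1 window ends short of the GENCODE start given above, so its bases are counted from the RefSeq start.
Glycam1: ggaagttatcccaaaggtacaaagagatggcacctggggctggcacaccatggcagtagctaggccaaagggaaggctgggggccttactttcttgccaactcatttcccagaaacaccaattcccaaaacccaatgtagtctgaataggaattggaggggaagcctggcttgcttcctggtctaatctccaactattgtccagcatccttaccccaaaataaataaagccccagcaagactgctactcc
Madcam1: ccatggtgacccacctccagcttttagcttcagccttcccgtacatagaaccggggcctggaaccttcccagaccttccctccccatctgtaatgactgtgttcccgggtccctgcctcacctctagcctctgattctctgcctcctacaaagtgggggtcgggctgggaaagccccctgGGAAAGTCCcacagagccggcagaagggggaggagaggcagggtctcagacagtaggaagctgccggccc
Sele: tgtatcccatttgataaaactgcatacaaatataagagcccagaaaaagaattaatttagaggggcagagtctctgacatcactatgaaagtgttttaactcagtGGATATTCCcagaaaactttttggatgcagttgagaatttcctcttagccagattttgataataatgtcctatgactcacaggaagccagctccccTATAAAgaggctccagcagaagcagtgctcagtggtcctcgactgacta
Icam1: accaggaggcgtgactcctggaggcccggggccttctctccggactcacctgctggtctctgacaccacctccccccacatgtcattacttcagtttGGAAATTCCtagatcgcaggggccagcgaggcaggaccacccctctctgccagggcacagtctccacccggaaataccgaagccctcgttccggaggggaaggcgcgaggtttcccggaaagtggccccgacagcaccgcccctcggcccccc
The Icam1 window held GGAAATTCC at 153 to 145 bases before the start, the Sele window held GGATATTCC at 145 to 137 bases and TATAAA at 49 to 44 bases, and the Madcam1 window held GGAAAGTCC at 70 to 62 bases. The Glycam1 window held neither. The Selp and Cd34 windows, which are not printed, also held neither, and both of these genes were higher in the ECs of hyperoxia too. Of 32851 promoter windows of the same length 3.59% held the first motif on either strand and 12.4% held TATAAA, also on either strand. The motifs were chosen with these windows in view, and a match describes letters and not a site in use.

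The depth was 39593888 UMIs in 4234 barcodes for room air and 111934936 UMIs in 13223 barcodes for hyperoxia. After low-quality barcodes and likely doublets had been removed, 3680 and 10472 cells remained, with medians of 8070.5 and 7194 UMIs, and 17 barcodes occurred in both libraries, 13 of them among the cells kept in both. Cells were clustered without the members and named by markers as endothelial-like, stromal-like and so on. There were 1038 ECs in room air and 2566 in hyperoxia, with Pecam1 in 94.8% and 92.9% of them. Of the ECs, 613 and 868 were gCap-like, 158 and 1145 aCap-like, 95 and 144 artery-like, 34 and 116 vein-like, 14 and 33 lymph-like, and 124 and 260 stayed unnamed. Most capillary cells lay in clusters that held at least 90% cells of 1 library (84.8% of gCap-like and 75.9% of aCap-like cells in room air, 90.8% and 80.8% in hyperoxia), whereas no artery-like, vein-like or lymph-like cell did, so for capillaries the library and the cell state cannot be told apart.

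**Figure D1:**
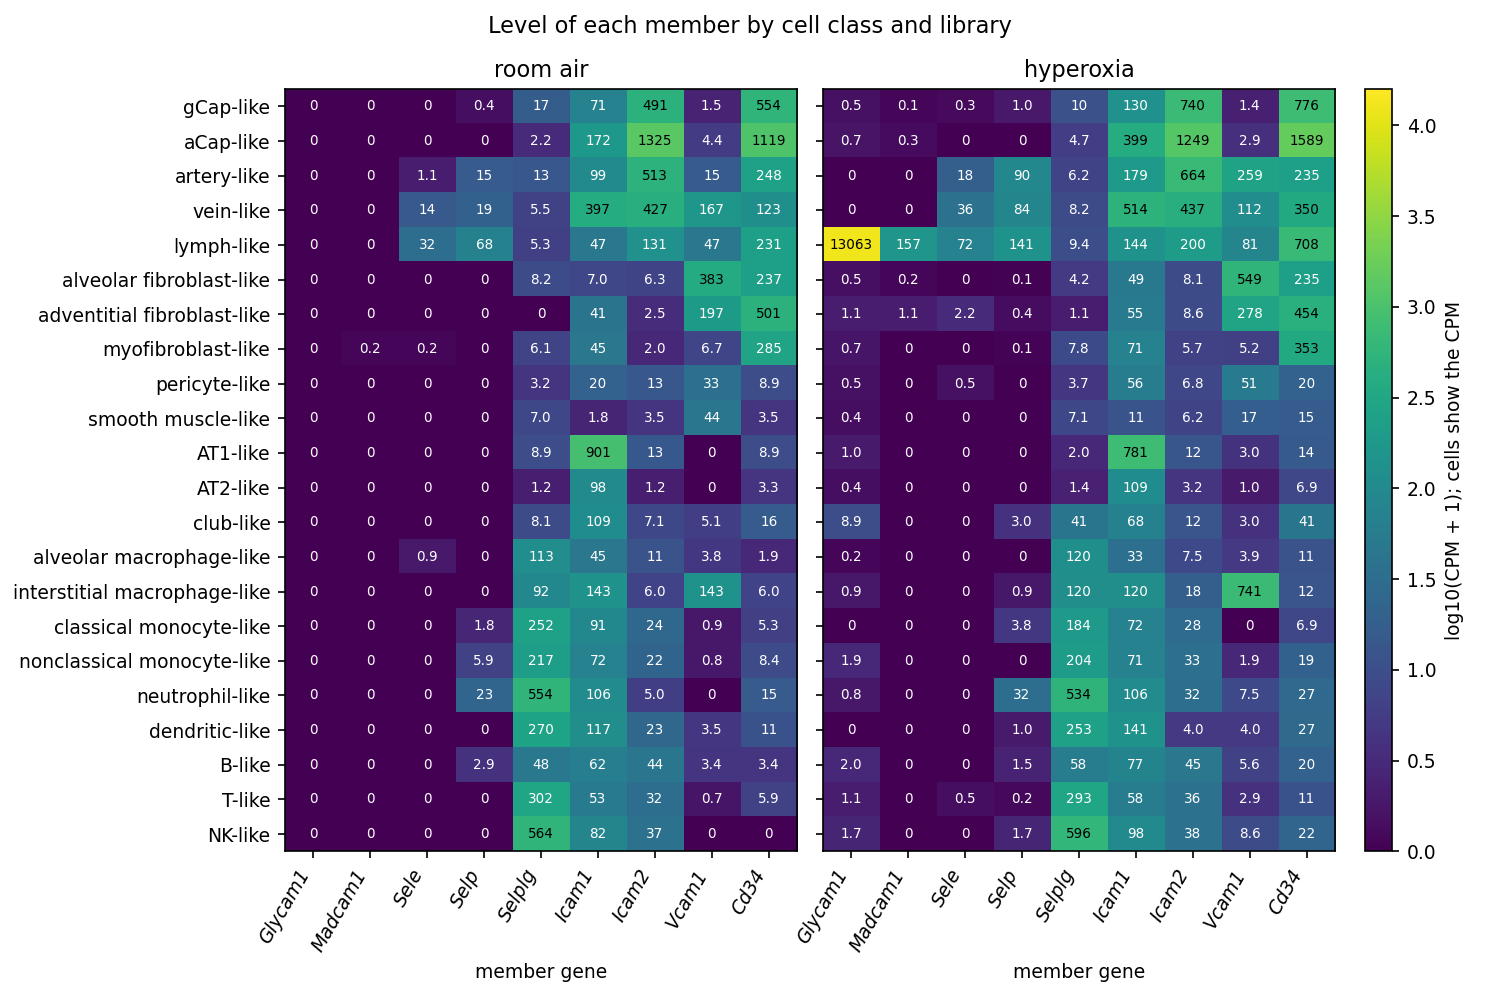
Level of the 9 members (columns) in 22 named cell classes (rows) of the room air library (left) and the hyperoxia library (right), coloured by log10(CPM + 1), where CPM is the UMIs of a gene per 1000000 UMIs of the class, with the CPM written in each field. Glycam1 stands at 0 in every room air class and at 13063 CPM in the lymph-like cells of hyperoxia, Icam2 and Cd34 are highest in aCap-like cells of both libraries, and Selplg is highest in NK-like and neutrophil-like cells.

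Glycam1 was not detected in any of the 4234 room air barcodes, and in hyperoxia it was carried almost entirely by 5 cells. The hyperoxia library held 4243 Glycam1 UMIs in 77 of 13223 barcodes, and 72 of these barcodes had exactly 1 UMI. The other 5 had 2736, 958, 380, 81 and 16 UMIs, and no barcode had 2 to 9. These 5 cells, called Glycam1-high below, held 4171 of the 4182 Glycam1 UMIs of the hyperoxia ECs. The summed level in ECs was therefore 204 CPM (198 to 211) in hyperoxia against 0 in room air, which at a floor of 3 counts in the room air ECs is at least 563-fold higher, and this ratio describes a few cells and not the endothelium at large. Without the lymph-like cells, the class in which all 5 lay, the bound came down to 0.42 on the log2 scale from 9.14.

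As a share of cells the same finding was small. Glycam1-high cells were 0.195% of the hyperoxia ECs (5 of 2566, 0.0633 to 0.454%) and 0 of 1038 in room air (0 to 0.355%). A difference in the share of such cells was therefore not detectable at this number of room air cells. Cells of most classes of the hyperoxia library held a single Glycam1 UMI. Counting every positive cell, 0.624% of the ECs had a Glycam1 UMI, and 0.684% of B-like cells, which should lack the gene, had one as well (median depths 8003 and 2975 UMIs), so that share was at the background. The classes other than the lymph-like one ranged up to 8.87 CPM, the level in club-like cells, where 3 UMIs had been counted.

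**Figure D2:**
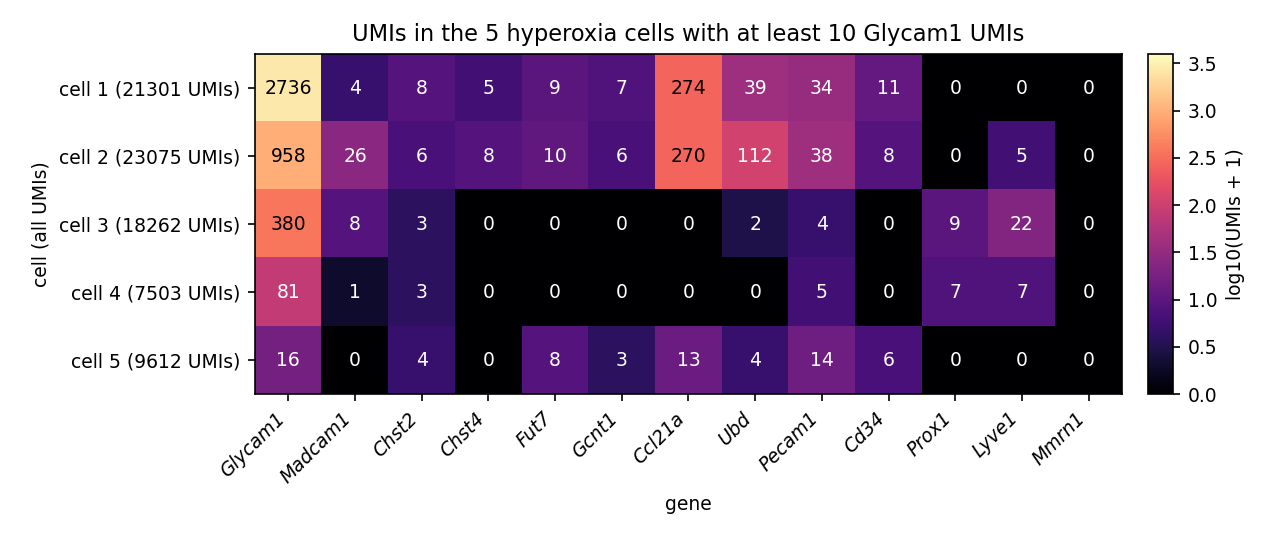
UMIs of 13 genes (columns) in the 5 hyperoxia cells with at least 10 Glycam1 UMIs (rows, with the cell's total), coloured by log10(UMIs + 1). Cells 1, 2 and 5 carry Fut7, Gcnt1 and Ccl21a, and cells 3 and 4 carry Prox1 and none of these.

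The 5 cells were not alike, and 3 of them carried the Fut7 and Gcnt1 enzymes of L-selectin ligands. The fucosyltransferase Fut7 had 9, 10 and 8 UMIs in cells 1, 2 and 5 and 0 in cells 3 and 4, and the branching enzyme Gcnt1 had 7, 6 and 3 UMIs in the same 3 cells and 0 in the others. The sulphotransferase Chst4 had 5 and 8 UMIs in cells 1 and 2 alone, and its relative Chst2 had between 3 and 8 UMIs in each of the 5. Ccl21a, a chemokine for T cells that both lymphatic ECs and high endothelial venules make, had 274, 270 and 13 UMIs in cells 1, 2 and 5. Cells 3 and 4 instead held Prox1, the transcription factor of lymphatic ECs (9 and 7 UMIs), and Lyve1, a lymphatic hyaluronan receptor (22 and 7 UMIs, beside 5 in cell 2), with no UMI of Fut7, Gcnt1, Chst4 or Ccl21a. Lymphatic Mmrn1 was at 0 in each of the 5, and Pecam1 was present in each (34, 38, 4, 5 and 14 UMIs).

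Madcam1, the scaffold for L-selectin and the integrin of gut-homing lymphocytes, was found in the same few cells. It had 4, 26, 8, 1 and 0 UMIs in cells 1 to 5, and these 39 UMIs were most of the 54 that the hyperoxia ECs held in 10 cells. The lymph-like class held 50 of them. No Madcam1 UMI was counted in the 1038 room air ECs, so the level in ECs was at least 7.27-fold higher in hyperoxia at a floor of 3 counts (2.64 against 0 CPM). Of the 16 ECs of hyperoxia with a Glycam1 UMI and the 10 with a Madcam1 UMI, 5 had both. B-like cells had no Madcam1 UMI in either library.

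The label of the class that held these cells was only weakly borne out in hyperoxia. In room air the 14 lymph-like cells carried the lymphatic markers Prox1 (12 cells), Mmrn1 (12 cells), Reln (12 cells) and Ccl21a (11 cells). In hyperoxia the 28 lymph-like cells other than the Glycam1-high ones carried Prox1 in 8, Mmrn1 in 5, Reln in 4 and Ccl21a in 3 cells, with Prox1 at 618 CPM against 1624 CPM in room air. The class is therefore called lymph-like by its cluster, and its hyperoxia cells are not taken as lymphatic ECs. The 6 leukocyte genes followed as a check (Ptprc, Tyrobp, Coro1a, Laptm5, Cd52 and Cd74) were low in the 5 Glycam1-high cells, with 20 UMIs of Cd74, between 1 and 3 of Ptprc, Tyrobp and Coro1a, and 0 of Laptm5 and Cd52. Cells 1 to 4 had at least 1 of these UMIs and cell 5 had 0, so that the bound for Glycam1 in the ECs without such a UMI was 1.03 on the log2 scale. Their part in the result was not tested.

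By a rule of size, the 10 genes with the largest ratio between hyperoxia ECs with and without a Glycam1 UMI were Ubd, Ccl21a, Dsg2, Serpina1e, Madcam1, Msr1, Fut7, Lrg1, Dclk1 and Oit1. Ubd, an inducible ubiquitin-like protein, stood at 899 CPM in the 16 positive cells and 0 in the 2550 others, and Lrg1, a secreted glycoprotein of activated vessels, stood at 939 against 6.51 CPM. The positive cells other than the Glycam1-high ones had 1 Glycam1 UMI each. Cells 1 and 2 held 39 and 112 of the 157 Ubd UMIs of the Glycam1-high cells, and 274 and 270 of their 557 Ccl21a UMIs, so these ratios rest on few cells. Over 42 points, each a class of at least 30 cells in 1 library, the levels closest to that of Glycam1 were those of Nxph1, Chst4, Serpina1e, Gm12002 and Ubd (each with a Pearson r of log2(CPM + 1) of 0.95). No Glycam1 point other than that of the lymph-like cells of hyperoxia was above 8.87 CPM. The points share libraries and depth, so these values are descriptions.

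The other selectin ligand scaffolds and enzymes were followed as a list, with a gene counted as past the limit when its CPM in ECs differed 2-fold between the libraries at a mean of at least 10 CPM. Of 8418 genes measured at that level in ECs, 1.88% were higher and 2.89% were lower in hyperoxia by 2-fold. Of the 18 scaffolds and enzymes on the list 10 were measured at that level, 1 was past the limit upward and 1 downward, and their median log2 ratio was -0.10, against 0.00 over all genes. Chst2 was the higher one (36.5 CPM in room air against 79.4 CPM in hyperoxia, log2 ratio 1.12, 0.94 to 1.30), and Podxl2, a CD34-family scaffold, the lower one (17.9 and 7.62 CPM, log2 ratio -1.23, -1.56 to -0.90). Podxl, the other scaffold of that family on the list, had 433 and 593 CPM (log2 ratio 0.46, 0.40 to 0.51). Fut7 and Chst4 were too low in ECs for the list, with 1 and 31 UMIs of Fut7 and 0 and 13 of Chst4 in room air and hyperoxia. Of the Fut7 and Chst4 UMIs in hyperoxia, 27 and 13 lay in the Glycam1-high cells. Ackr1, a chemokine receptor of venules, had 35 UMIs in the room air ECs and 23 in those of hyperoxia, and all 35 lay in 1 lymph-like cell of room air.

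Among the members with at least 10 CPM in ECs (Glycam1, Selplg, Icam1, Icam2, Vcam1 and Cd34), Glycam1, Icam1 and Vcam1 were past the 2-fold limit upward, 3 of 6 against the 1.88% of all genes given above, and 0 of 6 were past it downward. The median log2 ratio of the 6 was 0.99, against 0.00 over all genes. Glycam1 had been chosen for its rise and reached 10 CPM through hyperoxia alone (0 and 204 CPM in ECs). Its place among the 3 was therefore set in advance, and it also enters the median. In gCap-like cells 0 of 4 were past the limit upward (1.82% of 8113 genes) and 0 downward (2.35%). In aCap-like cells Icam1 was past it, 1 of 3 (2.03% of 8128 genes), in artery-like cells Selp and Vcam1, 2 of 5 (6.06% of 8316 genes), and in vein-like cells Sele, Selp and Cd34, 3 of 6 (8.05% of 8112 genes), where 33 of the 53 hyperoxia UMIs of Sele lay in 1 cell. None was past it downward in these 3 classes, where 2.79%, 5.47% and 7.1% of genes were. The members had been listed with such values known, so the counts describe them and support nothing further.

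**Figure D3:**
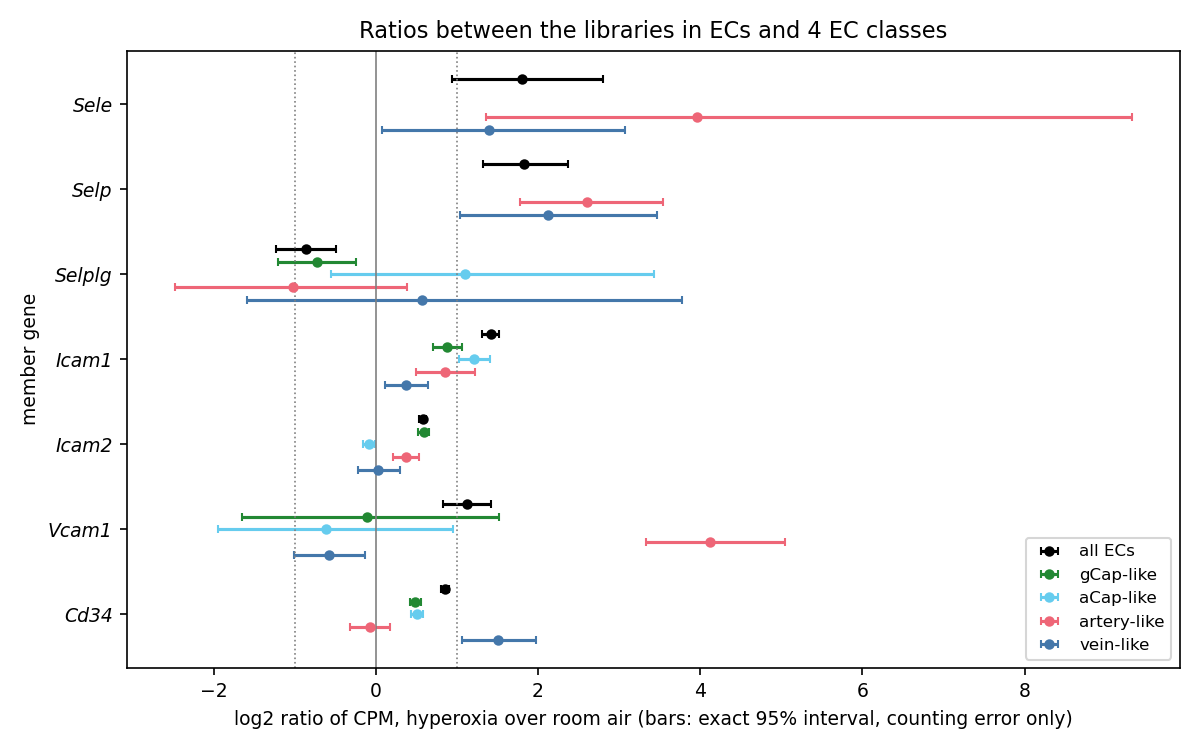
Ratio of hyperoxia over room air (log2 of CPM, x axis) for 7 members (y axis) in all ECs and in gCap-like, aCap-like, artery-like and vein-like cells, with exact 95% intervals of counting error and dotted lines at 2-fold. Points with fewer than 10 UMIs over both libraries are left out. The highest points are those of artery-like cells, Vcam1 at 4.13 and Sele at 3.97, the latter with a wide interval (1.36 to 9.32), and Selplg is the one member below 0 in all ECs.

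Selp was higher in hyperoxia in arterial and venous cells, and both selectins were nearly absent from capillaries. Sele was higher in arterial cells by summed counts, against 1 UMI in room air. Selp (P-selectin, which ECs store and release to the surface on activation) had 35 UMIs in the room air ECs and 307 in the hyperoxia ECs, or 4.23 (2.95 to 5.89) and 15.01 (13.4 to 16.8) CPM, a log2 ratio of 1.83 (1.32 to 2.37). Sele (E-selectin, which is made on activation by cytokines) had 12 and 104 UMIs, or 1.45 and 5.08 CPM, a log2 ratio of 1.81 (0.94 to 2.81). Both intervals of the ratios lay above 0. In gCap-like cells there were 2 and 7 UMIs of Selp and 0 and 2 of Sele, and in aCap-like cells neither library had a UMI of either.

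In artery-like cells Selp was at 14.8 CPM in room air against 89.9 CPM in hyperoxia (13 and 131 UMIs, log2 ratio 2.60, 1.77 to 3.55). Sele had 1 and 26 UMIs there (1.14 and 17.8 CPM), a ratio of 15.6 with a counting interval from 2.57 to 641. At 2000 UMIs per cell 0 of 94 and 3 of 141 artery-like cells had a Sele UMI, with overlapping intervals (0 to 3.85% and 0.441 to 6.09%). In vein-like cells Selp was at 19.2 and 83.6 CPM (7 and 123 UMIs, log2 ratio 2.12, 1.04 to 3.47) and Sele at 13.7 and 36.0 CPM (5 and 53 UMIs, log2 ratio 1.40, 0.083 to 3.08). In the lymph-like cells Selp had 13 and 45 UMIs and Sele 6 and 23. Few cells carried these UMIs. A single vein-like cell held 33 of the 53 Sele UMIs of hyperoxia, and the share of vein-like cells with a Sele UMI was 5.88% in room air against 6.03% in hyperoxia (5.88% of 34 and 3.48% of 115 at 2000 UMIs), so the venous Sele ratio rests on few cells. The 5 vein-like cells with the most Sele UMIs in hyperoxia held 96.2% of them, against 41.5% for Selp, and in room air all 12 endothelial Sele UMIs lay in 4 cells.

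Within the artery-like cells a small cluster led the Selp level. It held 4 room air and 25 hyperoxia cells, with Selp at 102 (33.2 to 238) and 212 (162 to 272) CPM, while the larger artery-like cluster (91 and 119 cells) stood at 9.68 (4.18 to 19.1) and 59.9 (46.7 to 75.7) CPM. Of the 94 Selp-positive ECs in hyperoxia 16 also had Sele, out of 26 with Sele, and in room air 2 of 4. The genes whose levels over the 42 class points were closest to that of Selp were Tmem255b (r = 0.78), Sele (0.76), Cmip (0.76), Cldn15 (0.71) and Rbp7 (0.70).

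Selp is also made by platelets, and platelet markers moved with the library in some classes. The summed level of 6 platelet markers was 7.01 CPM in the room air ECs and 15.5 CPM in the hyperoxia ECs. In vein-like cells it was 0 and 41.5 CPM, with 6 of the 6 markers at 0 in room air and none at 0 in hyperoxia. In artery-like cells it was 6.85 and 2.06 CPM, with 2 and 4 of the 6 markers at 0. The part of platelets in the venous value was not tested. Neutrophil-like cells, which can carry platelets, had 22.7 and 31.8 CPM of Selp, a log2 ratio of 0.49 (-0.59 to 1.72).

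The selectin ratios depended on which ECs were counted. A UMI of the 6 leukocyte genes was found in 532 of the 1038 room air ECs and 937 of the 2566 hyperoxia ECs, and their summed level in ECs was 231 and 73.3 CPM. In the ECs without such a UMI the log2 ratio of Sele was -0.52 (-1.53 to 0.58) and that of Selp 0.81 (0.20 to 1.46), so the direction of Sele was turned. With the doublet removal doubled they were 0.92 (-0.0037 to 1.97) and 1.16 (0.63 to 1.73).

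Vcam1, the ligand of the integrin VLA-4 on monocytes and lymphocytes, differed most in arterial cells. In artery-like cells it went from 13 UMIs in 3 of 95 cells in room air to 378 UMIs in 77 of 144 cells in hyperoxia, at 14.8 and 259 CPM, giving a log2 ratio of 4.13 (3.34 to 5.05). At an equal depth of 2000 UMIs per cell, 1.06% of 94 room air cells and 29.8% of 141 hyperoxia cells had a UMI. Both artery-like clusters showed it, with 15.7 and 285 CPM in the larger and 0 and 156 CPM in the smaller, which had 4 room air cells. Fibroblasts are the main source of Vcam1, and the summed level of 8 stromal markers in artery-like cells was 1090 CPM in room air against 1234 CPM in hyperoxia, with none of the 8 at 0, against 28960 and 26686 CPM in alveolar fibroblast-like cells. The part of fibroblast RNA in the arterial value was not tested. In room air and hyperoxia Gja5, a connexin of arterial ECs, was at 401 and 663 CPM in artery-like cells and at 13.7 and 1.36 CPM in vein-like cells. Slc6a2, a marker of lung veins, was at 0 in the artery-like cells of both libraries. Both genes were among the markers by which these classes were named, so these values describe the arterial label and do not test it.

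**Figure D4:**
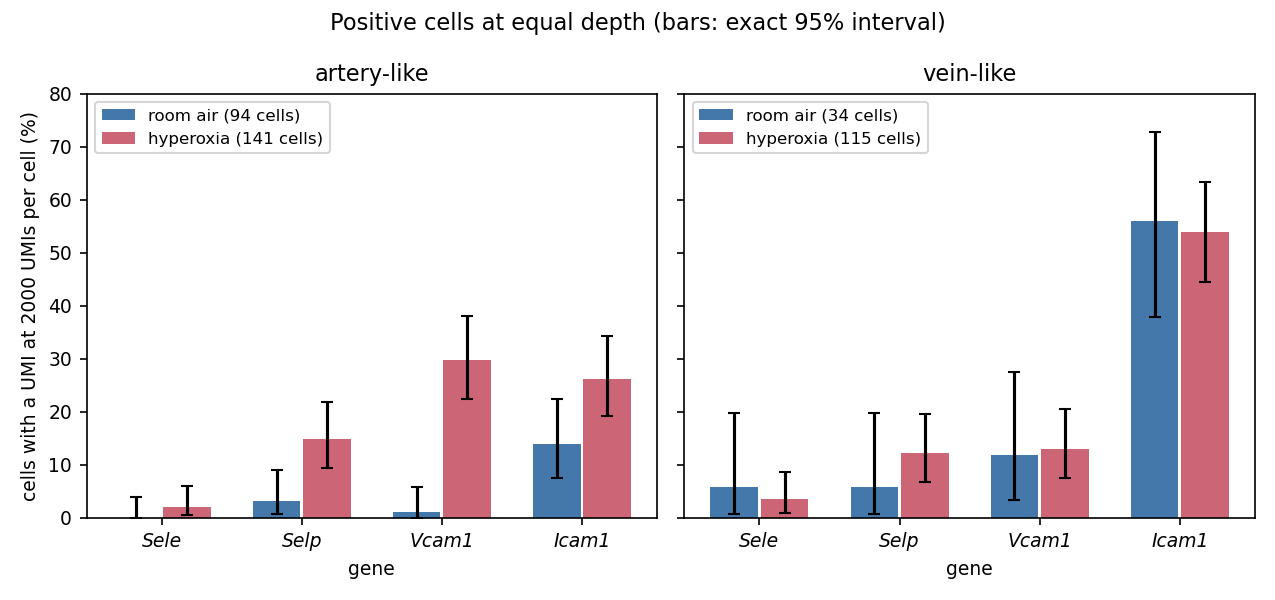
Percent of artery-like (left) and vein-like (right) cells with a UMI of Sele, Selp, Vcam1 and Icam1 after each cell was thinned to 2000 UMIs, for room air (blue) and hyperoxia (red), with exact 95% intervals. In artery-like cells the Vcam1 bars stand at 1.06% and 29.8%, and the intervals of the libraries overlap for Sele and Icam1. In vein-like cells the intervals of the libraries overlap for each of the 4 genes.

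Vein-like cells showed no such difference in Vcam1. Their level was 167 CPM in room air against 112 CPM in hyperoxia (61 and 165 UMIs), a log2 ratio of -0.58 (-1.01 to -0.13), with 75.4% of the room air UMIs in 5 cells. The intervals of the arterial and the venous ratio did not overlap. Capillary cells had little Vcam1, with 7 and 10 UMIs in gCap-like and 6 and 25 in aCap-like cells. Over all ECs the levels were 13.9 and 30.3 CPM, a log2 ratio of 1.12 (0.83 to 1.42), and the share of ECs with a UMI was 3.76% and 6.86%. In arterial cells of hyperoxia, 34 of the 44 Selp-positive cells and 56 of the 92 Icam1-positive cells also had Vcam1, of 77 Vcam1-positive cells in all. In these 144 cells the overlaps expected of unrelated genes were 23.5 for Selp and 49.2 for Icam1, so the Icam1 overlap was near that number.

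**Figure D5:**
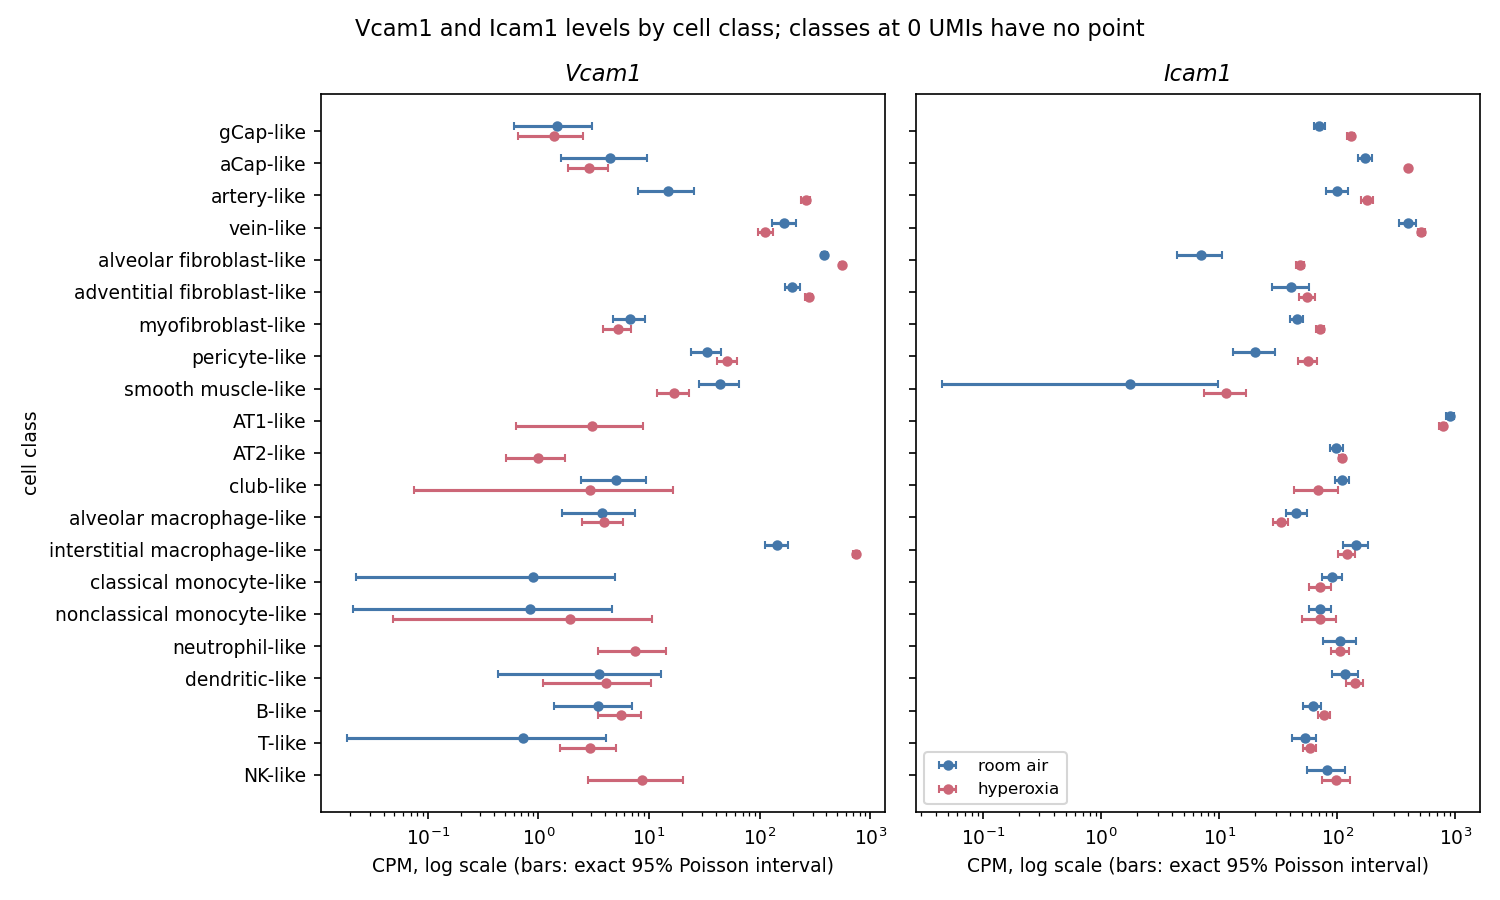
Vcam1 (left) and Icam1 (right) in CPM on a log axis by cell class (y axis) for room air (blue) and hyperoxia (red), with exact 95% Poisson intervals. Vcam1 differs most in artery-like and interstitial macrophage-like cells, and Icam1 in alveolar fibroblast-like cells, while AT1-like cells are the highest Icam1 class of both libraries.

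Most Vcam1 of the lung came from fibroblasts and not from vessels. Alveolar fibroblast-like cells held 70.9% of the Vcam1 UMIs of the room air library and 72.9% of those of hyperoxia, at 383 and 549 CPM (log2 ratio 0.52, 0.43 to 0.61), and adventitial fibroblast-like cells stood at 197 and 278 CPM (0.50, 0.25 to 0.75). Interstitial macrophage-like cells had 143 and 741 CPM (72 and 867 UMIs), a log2 ratio of 2.37 (2.02 to 2.74), and became the class with the highest Vcam1 level in hyperoxia, where 78 of 122 cells had a UMI against 15 of 50 in room air. Their summed stromal marker level was 161 and 229 CPM, with 1 and 0 of the 8 markers at 0. Vcam1 and Icam2 were past the 2-fold limit in them, 2 of 4 members measured (5.14% of genes upward, 4.57% downward). The Icam2 value there rested on 3 and 21 UMIs, a log2 ratio of 1.59 (-0.16 to 3.98), with 11 of the 21 in 1 cell and a UMI in 6.0% and 4.92% of cells. Smooth muscle-like cells had 43.9 and 16.7 CPM (25 and 38 UMIs, log2 ratio -1.39, -2.16 to -0.60), the 1 of 1 member measured there and past the limit downward (3.69% of genes downward, 4.63% upward). Of these UMIs 17 of 25 lay in 1 room air cell and 16 of 38 in 1 hyperoxia cell, and at 2000 UMIs per cell 4.65% of 43 and 3.08% of 195 cells had one, with overlapping intervals (0.568 to 15.8% and 1.14 to 6.58%). The genes closest to Vcam1 over the 42 points were Nuak1 (r = 0.85), Tmem119 (0.81), Colec12 (0.80), F830016B08Rik (0.79) and Fam20a (0.78).

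Icam1, the ligand of the leukocyte integrins LFA-1 and Mac-1, was higher in hyperoxia in every named EC class. Over all ECs it was at 104 (96.8 to 111) CPM in room air against 277 (270 to 284) CPM in hyperoxia, a log2 ratio of 1.42 (1.31 to 1.52). At 2000 UMIs per cell, 16.4% of the room air ECs and 33.1% of the hyperoxia ECs had a UMI, against 0% of 43 and 2.05% of 195 smooth muscle-like cells, the class with the lowest Icam1 level. Part of the ratio in ECs went with their makeup, since aCap-like cells gave 16.5% of the endothelial UMIs in room air and 42.6% in hyperoxia. With the hyperoxia classes weighted as in room air the log2 ratio was 0.94. Within classes it was 1.22 (1.02 to 1.41) in aCap-like cells (172 and 399 CPM), 0.88 (0.70 to 1.07) in gCap-like cells (70.5 and 130.0 CPM), 0.85 (0.50 to 1.22) in artery-like cells (99.4 and 179 CPM) and 0.37 (0.11 to 0.64) in vein-like cells (397 and 514 CPM), and in lymph-like cells 9 and 46 UMIs were counted. Vein-like cells were the highest EC class and aCap-like cells the next in both libraries.

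Outside the vessels Icam1 differed most in alveolar fibroblast-like cells. They had 22 UMIs in 14 of 222 cells in room air and 623 UMIs in 382 of 1207 cells in hyperoxia, or 6.97 and 48.6 CPM, a log2 ratio of 2.80 (2.19 to 3.49). Icam1 was past the 2-fold limit there, 1 of 3 members measured (2.44% of 8451 genes upward, 1.89% downward). In room air 59.1% of the UMIs lay in 5 cells. Smooth muscle-like cells, the class with the least Icam1, had 1 and 26 UMIs, or 1.76 and 11.5 CPM. At 2000 UMIs per cell 2.07% and 8.24% of alveolar fibroblast-like cells had a UMI. The summed leukocyte gene level of alveolar fibroblast-like cells was 90.9 and 63.7 CPM. Pericyte-like cells stood at 20.2 and 56.1 CPM (log2 ratio 1.48, 0.84 to 2.17), and Icam1 and Cd34 were past the limit there, 2 of 3 members measured (3.95% of genes upward, 3.52% downward). Cd34 stood at 8.87 and 19.9 CPM in pericyte-like cells (11 and 38 UMIs), in hyperoxia no higher than the 20.3 CPM of B-like cells, which should lack it. The highest level was in type 1 alveolar epithelial (AT1-like) cells, where it was 901 CPM in room air against 781 CPM in hyperoxia (-0.21, -0.36 to -0.05), and type 2 (AT2-like) cells had 97.9 and 109 CPM (0.16, -0.04 to 0.36). ECs held 27.4% of the Icam1 UMIs of the room air library and 51.1% of those of hyperoxia, and aCap-like cells alone held 7.47% and 31.4%.

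Icam2, a constitutive ligand of LFA-1 on resting endothelium, was an EC gene, with 92.8% and 95.2% of its UMIs in ECs. Its level in ECs was 611 (595 to 629) CPM in room air against 914 (901 to 927) CPM in hyperoxia, a log2 ratio of 0.58 (0.53 to 0.62), which came to 0.35 at the makeup of room air. The classes gave different values. In gCap-like cells the ratio was 0.59 (0.52 to 0.66), from 491 to 740.3 CPM, in artery-like cells 0.37 (0.21 to 0.54), in vein-like cells 0.03 (-0.22 to 0.29) and in aCap-like cells, where Icam2 was highest, -0.09 (-0.16 to -0.01), from 1325 to 1249 CPM. In neutrophil-like cells 2 UMIs were counted in 105 room air cells and 38 in 475 hyperoxia cells, a ratio of 6.31 with a counting interval from 1.63 to 54.0, and 25 hyperoxia cells carried them. It was the 1 of 5 members past the limit in neutrophil-like cells (6.31% of genes upward, 5.7% downward).

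Cd34, a mucin of capillary ECs and fibroblasts that can carry L-selectin ligands, was at 580.5 (564 to 597) CPM in the room air ECs and 1050.05 (1036 to 1064) CPM in the hyperoxia ECs. The log2 ratio was 0.86 (0.81 to 0.90), and it was 0.51 at the makeup of room air. By class it was 0.51 (0.43 to 0.58) in aCap-like cells (1119 and 1589 CPM) and 0.49 (0.42 to 0.55) in gCap-like cells (554 and 776 CPM). The largest ratio among the EC classes with at least 30 cells was in vein-like cells, from 123 to 350.2 CPM (45 and 515 UMIs, 1.51, 1.06 to 1.98), with a UMI in 17 of 34 and 108 of 116 cells. Artery-like cells had 248 and 235 CPM (-0.07, -0.32 to 0.18). Alveolar fibroblast-like cells differed little, with 237 and 235 CPM (-0.01, -0.12 to 0.11). Adventitial fibroblast-like cells had 501 (453 to 552) and 454 (429 to 480) CPM. Myofibroblast-like cells had 285 (271 to 299) CPM in room air against 353 (341 to 365) CPM in hyperoxia. In B-like cells, which should lack Cd34, it stood at 3.42 and 20.3 CPM, a small part of the level in ECs, and the source of these UMIs was not tested.

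Selplg, the selectin ligand on leukocytes, was highest in NK-like cells (564 and 596 CPM, log2 ratio 0.08, -0.17 to 0.33) and neutrophil-like cells (554 and 534 CPM, -0.05, -0.28 to 0.17), whose intervals overlapped in each library. T-like cells were the third of the named classes with at least 30 cells, with 302 and 293 CPM (-0.05, -0.21 to 0.12). Classical monocyte-like cells were lower in hyperoxia, at 252 and 184 CPM (-0.46, -0.71 to -0.21). Alveolar macrophage-like cells (113 and 120 CPM) and B-like cells (47.9 and 58.2 CPM) had ratios whose intervals included 0. In ECs Selplg was low, at 13.4 CPM in room air against 7.38 CPM in hyperoxia (-0.86, -1.23 to -0.50), and there it moved with the leukocyte genes, whose summed level was 231 and 73.3 CPM. In the ECs without a UMI of these leukocyte genes, the Selplg ratio moved by less than the counting error. The part of leukocyte RNA in this value was not tested. The named stromal and epithelial classes, which should lack Selplg, ranged from 0 to 8.88 CPM in room air and from 1.08 to 41.4 CPM in hyperoxia, where the shallow club-like cells were the highest and myofibroblast-like cells the next at 7.75 CPM. In gCap-like cells it stood at 16.6 and 10.04 CPM. The share of ECs with a Selplg UMI was 8.77% and 5.34%.

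The receptors that leukocytes use for these ligands and other genes of the pathway were also followed in ECs. Of all genes there, 1.88% were higher and 2.89% were lower by 2-fold, so a count of 0 in a short list is near that share. Of 10 counter-receptors 3 were measured at 10 CPM or more in ECs (Itga4, Itga9 and Itgb1), and 0 were past the 2-fold limit in either direction. Their median log2 ratio was 0.44, against 0.00 over all genes. Of 16 other adhesion and transmigration molecules 15 were in the matrix and 10 were measured, among them the junction proteins F11r, Jam2 and Esam, 0 were past the limit and the median was 0.00. F11r was at 249 and 253 CPM and Esam at 588 and 532 CPM.

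Genes of cytokine reception and the NF-kB pathway, which activates Sele, Icam1 and Vcam1 in many settings, did not move one way in ECs. Of 17 on the list 13 were measured, and 0 were past the 2-fold limit (1.88% of all genes upward, 2.89% downward). Of the 13, 6 were above 0, and the median log2 ratio was -0.13. The 5 with the most UMIs per total, by mean CPM, were Nfkbia, the inhibitor and target of the pathway (413 and 470.1 CPM, 0.19, 0.13 to 0.24), Irf1 (228 and 174 CPM, -0.39), Nfkb1 (162 and 107 CPM, -0.60), Tnfrsf1a, a receptor of TNF (165 and 119 CPM, -0.47), and Il4ra (94.3 and 86.5 CPM, -0.13). Tnfaip3, a feedback inhibitor of the pathway (33.9 and 57.7 CPM, 0.77, 0.58 to 0.96), and Rela, one of its subunits (64.5 and 99.7 CPM, 0.63, 0.49 to 0.77), were the highest ratios and are named for that.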

How the data were processed

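The 2 lung libraries were made from perfused, enzymatically digested lungs of 8 pooled mice each. Raw UMI counts, which the authors deposited without normalization, had been made with Cell Ranger on the mm10 genome. The submitters' processing notes give Cell Ranger 2.1.1 and the matrix headers version 3.1.0. The protocol names other versions, which was not settled here. The members and gene lists were chosen with earlier results of these data known.

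The tools were Python 3.11.15 with scipy 1.17.1, numpy 2.4.6, and pandas 2.3.3. Barcodes needed 500 or more genes and no more than 20% mitochondrial UMIs. Doublets were scored against 2 simulated doublets per cell, and the top 0.8% per 1000 barcodes were removed (129 cells in room air, 1239 in hyperoxia). The 2000 most variable genes, without members, list genes, mitochondrial, haemoglobin and sex-linked genes, were reduced to 30 components and clustered with 20 neighbours at resolution 1 (scikit-learn 1.9.0, igraph 0.11.9, leidenalg 0.10.2, seed 1), which gave 33 clusters. ECs were clustered again into 15 clusters, 3 of them unnamed. A cluster was named when at least 3 markers were raised (in 5% of its cells and 0.5 above other clusters on the log2 scale) and markers of no other class outnumbered its own among its 10 leading genes. After the clusters had been seen, haemoglobin genes were left out and the cell type markers of a lineage were counted as its own in that check.

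Levels are summed UMIs per 1000000 UMIs of the class (CPM). CPM intervals are exact Poisson, shares exact Clopper-Pearson and ratios exact conditional binomial intervals at 95%, for counting error only. A count of 0 was set to a floor of 3 counts for a bound, taken over the class. Equal-depth shares drew 2000 or 1000 UMIs per cell and left out shallower cells. Named genes were the 9 members, list genes past a 2-fold ratio or among the 5 highest, the 5 genes most like Glycam1, Selp and Vcam1, and the 10 with the largest ratio between Glycam1-positive and other hyperoxia ECs at 50 CPM or more. Chst4, Fut7, Ackr1, Tnfaip3, Rela, Prox1 and the other genes given for single cells were named after their values had been seen. The ratios and intervals were tested on simulated data. No gene ID of the members failed to match GENCODE M21, figures were drawn with matplotlib 3.10.9, and 0 columns of other samples were present.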

Additional observations from a re-analysis of the deposited data

Results flagged for a closer look

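For 4 members the log2 ratio between the libraries was above 0 in one cell class and below 0 in another, with both intervals clear of 0, and the difference between the classes was not tested. The share of all genes that do the same was not counted, so the 4 cannot be called unusual. Vcam1 had a log2 ratio of 4.13 in artery-like cells and -1.39 in smooth muscle-like cells, and of the 7 classes with enough UMIs 5 were higher and 2 lower. In smooth muscle-like cells 1 cell held 17 of the 25 room air UMIs and 1 cell held 16 of the 38 hyperoxia UMIs, so that value rests on few cells. Icam1 had 2.80 in alveolar fibroblast-like cells and -0.68 in club-like cells, with 8 of 19 classes higher and 3 lower. Icam2 had 2.66 in neutrophil-like cells and -0.09 in aCap-like cells. Selplg had 2.35 in club-like cells and -0.72 in gCap-like cells. Of 12 classes 3 were higher and 1 lower for Icam2, and of 10 classes 1 was higher and 2 lower for Selplg. The club-like cells of hyperoxia were shallow, with a median of 1879 UMIs against 17019 in room air, and the part of depth in these values was not tested.

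Glycam1 was also present in barcodes outside the cells analysed. Among the hyperoxia barcodes left out, 12 Glycam1 UMIs were counted, 1 in each of 12 barcodes, against 0 in the 554 barcodes left out of room air.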

How the results depend on the processing

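No paired analysis was possible because each group is 1 library and no test was made. Of the values recomputed under other settings, 99 moved by less than the counting error, 31 moved further and 1 changed direction. Without the ECs that had a leukocyte UMI, the log2 ratios in ECs were 1.03 for Glycam1 (a bound), -0.52 for Sele (the changed direction), 0.81 for Selp, 0.51 for Icam2, 0.78 for Vcam1 and 0.80 for Cd34. With double the doublets removed they were 0.92 for Sele, 1.16 for Selp and 0.92 for Cd34, and with median-of-ratios size factors 0.68 for Icam2 and 0.96 for Cd34. The mean over single cells gave -0.44 for Selplg and 0.70 for Icam2. At the makeup of room air Icam1 was 0.94, Icam2 0.35 and Cd34 0.51. The makeup weighting and the next 3 settings were chosen after seeing the data. Without the 5 cells of each library with the most UMIs of the gene, Glycam1 was 0.57 (a bound), Selp 2.73 and Vcam1 1.81. Those 5 cells held 60% of the Selp UMIs of the room air ECs and 25.1% of those of hyperoxia, and 52.2% and 22.3% for Vcam1. The cut was thus unequal, and the larger Selp and Vcam1 ratios are not a sign of a firmer difference. Glycam1 was 0.42 without lymph-like cells and 0.38 with lineage markers only in the naming check, which left out 205 room air and 323 hyperoxia ECs. Madcam1 gave no value under these 3 settings or without leukocyte UMIs, since hyperoxia came to the floor, and the mean over single cells gave none for Glycam1 or Madcam1. At 2000 and 1000 UMIs per cell the shares of positive ECs, hyperoxia minus room air, were -1.06 and -0.97 percentage points for Selplg, 16.7 and 13.6 for Icam1, 15.1 and 16.1 for Icam2 and 17.0 and 18.8 for Cd34, and at 1000 they were 0.311 for Selp and 1.38 for Vcam1. Genes past 2-fold in ECs were 4.76% of those with 10 CPM and 28.6% of those with any UMI. A floor of 3 cells among the 1038 room air ECs is a share of 0.289%, and rarer cells could be missed there.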
